A study of Mus musculus with 22 samples.

Results

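The enzyme RING1B and the histone mark it places, H2AK119ub1, were set side by side in small intestinal crypts of wild-type (WT) mice of the Villin-Cre line. Crypts are the pits of the intestinal epithelium that hold its stem cells. The RING1B list held 4403 ChIP-seq peaks and the H2AK119ub1 list 6219, together 10622 of the 190797 peaks in the 16 lists of the series. A peak counted as overlapping when it shared at least 1 bp with a peak of the other list. This gave 3 classes: RING1B with the mark (1856 RING1B peaks, matched by 2093 mark peaks), RING1B without the mark (2547 peaks) and the mark without RING1B (4126 peaks).

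RING1B is the catalytic RING finger subunit of Polycomb repressive complex 1 (PRC1) and attaches a single ubiquitin to a lysine near the end of histone H2A. PRC1 exists in several forms that share RING1B or its relative RING1A and differ in the PCGF subunit. Canonical forms carry a CBX protein that reads the H3K27me3 mark of PRC2, while variant forms carry RYBP or YAF2. PRC1.6 is the variant form built on PCGF6, MGA, MAX, L3MBTL2 and E2F6, which brings DNA-binding partners of its own. Polycomb complexes are known for silencing developmental regulators such as the Hox genes in cells that do not use them.

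The mice were C57BL/6, and the WT genotype is given without further detail of the Cre or floxed alleles. The series' design text, written for RNA samples, gives males of 8 to 12 weeks taken 7 days after tamoxifen (Villin-Cre) or beta-naphthoflavone (AhCre). Whether that holds for the chromatin samples was not stated. The Villin promoter drives Cre in the intestinal epithelium, and AhCre is induced by beta-naphthoflavone. The lists used beside the pair were RING1B, H2AK119ub1, CTCF and RAD21 from Villin-Cre crypts with Pcgf6 knockout (KO), CTCF and RAD21 from WT Villin-Cre crypts, and PCGF6, RING1B and H2AK119ub1 from AhCre crypts of WT and Pcgf6 KO mice. PCGF6 and RING1B lists of WT embryonic stem cells (ESC, line E14) were also used. CTCF is an insulator protein and RAD21 a subunit of the cohesin ring. With 1 library behind each list, values carry no spread between samples and conditions were not tested against each other. Intervals are exact Clopper-Pearson 95% intervals that cover counting error only. Read counts are not part of the lists, and library depth is unknown. Scores are the authors' −log10 p or q of each peak, all 10 or more. The RING1B and H2AK119ub1 lists were not scaled to each other, so scores are ranked only within a list. Positions are 1-based on mm10.

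The promoters below are those of strong peaks in each class, shown so that the motifs described later can be read in the bases. Each run is the 250 bases before the transcript start, 5′ to 3′ on the strand of the gene, from RefSeq's GRCm38.p6 (mm10). Igf2bp3 and Isl2 had RING1B with the mark, Ndrg3, Cops7a, Dhx40 and Cmc1 had RING1B without it, and Cryba2 had the mark without RING1B. Capitals mark CACGTG, the E-box that MAX dimers such as MGA-MAX bind, and GGCGGGA or its reverse complement TCCCGCC, the core of E2F sites. Cops7a, Dhx40 and Cmc1 were picked because their promoters hold CACGTG.
Igf2bp3: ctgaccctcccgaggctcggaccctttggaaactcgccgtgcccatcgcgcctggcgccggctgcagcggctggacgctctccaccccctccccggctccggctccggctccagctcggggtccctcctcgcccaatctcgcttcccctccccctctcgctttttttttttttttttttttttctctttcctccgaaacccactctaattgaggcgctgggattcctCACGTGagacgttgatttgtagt
Isl2: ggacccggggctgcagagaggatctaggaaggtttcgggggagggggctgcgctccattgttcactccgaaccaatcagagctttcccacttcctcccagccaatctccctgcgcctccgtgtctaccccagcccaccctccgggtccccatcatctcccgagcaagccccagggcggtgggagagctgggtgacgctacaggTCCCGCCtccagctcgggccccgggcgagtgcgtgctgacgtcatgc
Ndrg3: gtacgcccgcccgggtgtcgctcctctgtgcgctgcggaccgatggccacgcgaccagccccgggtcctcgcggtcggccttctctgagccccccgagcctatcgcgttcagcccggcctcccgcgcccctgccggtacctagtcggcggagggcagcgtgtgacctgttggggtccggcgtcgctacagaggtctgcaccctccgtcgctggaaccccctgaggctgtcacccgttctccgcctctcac
Cops7a: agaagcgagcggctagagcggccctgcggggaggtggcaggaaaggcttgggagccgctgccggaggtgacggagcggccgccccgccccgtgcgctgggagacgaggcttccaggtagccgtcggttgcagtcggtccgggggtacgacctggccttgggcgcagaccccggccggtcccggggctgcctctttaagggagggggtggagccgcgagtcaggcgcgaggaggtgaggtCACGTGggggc
Dhx40: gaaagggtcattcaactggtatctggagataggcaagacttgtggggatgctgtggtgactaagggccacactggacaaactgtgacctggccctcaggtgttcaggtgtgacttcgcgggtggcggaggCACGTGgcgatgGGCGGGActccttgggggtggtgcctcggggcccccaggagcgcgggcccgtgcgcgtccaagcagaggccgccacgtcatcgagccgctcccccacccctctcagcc
Cmc1: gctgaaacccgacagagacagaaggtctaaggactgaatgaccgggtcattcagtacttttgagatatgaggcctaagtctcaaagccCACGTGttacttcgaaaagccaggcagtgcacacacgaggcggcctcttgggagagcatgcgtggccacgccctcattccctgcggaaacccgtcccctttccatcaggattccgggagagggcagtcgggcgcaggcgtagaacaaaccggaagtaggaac
Cryba2: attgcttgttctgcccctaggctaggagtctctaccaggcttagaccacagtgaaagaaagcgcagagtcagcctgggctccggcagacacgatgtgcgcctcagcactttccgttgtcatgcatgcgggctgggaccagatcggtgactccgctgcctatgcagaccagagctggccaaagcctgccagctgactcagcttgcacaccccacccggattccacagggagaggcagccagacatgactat
The windows lie at chr6:49214955-49215204 (minus strand) for Igf2bp3, chr9:55540899-55541148 (plus strand) for Isl2, chr2:156991704-156991953 (minus strand) for Ndrg3, chr6:124965267-124965516 (minus strand) for Cops7a, chr11:86807661-86807910 (minus strand) for Dhx40, chr9:118150197-118150446 (minus strand) for Cmc1 and chr1:74893144-74893393 (minus strand) for Cryba2. The E-box began 11 bases before the start of Cops7a and 23 before that of Igf2bp3.

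In the lists as deposited, most RING1B peaks lay outside the mark and most mark peaks lay outside RING1B. Of the RING1B peaks, 42.2% (40.7 to 43.6) overlapped H2AK119ub1, and of the mark peaks 33.7% (32.5 to 34.8) overlapped RING1B. The majority of the mark turned over when both lists were held to a score of 20 or more, where 444 mark peaks had RING1B and 401 did not (52.5%), against 30.1% of the RING1B peaks with the mark. In lists of equal length, the mark also had the larger overlapping share, 40.8% against 36.8% of RING1B. In bases, RING1B peaks covered 6.35 Mb, mark peaks 10.2 Mb and the shared ground 3.20 Mb. The shared ground was 50.5% of the RING1B bases and 31.4% of the mark bases. By the same rule in WT AhCre crypts, 1611 of 2368 RING1B peaks (68.0%) overlapped the mark, so the RING1B majority was the other way. Of the 13175 mark peaks there, 13.0% overlapped RING1B. The lists of the Cre lines differ in length, and what sets the shares apart was not tested.

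The RING1B peaks under the mark were the stronger and wider ones. Their median score was 19.5 and their median width 1305 bp, against 13.6 and 680 bp for RING1B peaks without the mark, ratios of 1.43 and 1.92. RING1B peaks of 10 kb or more numbered 60 with the mark and 1 without it. The mark showed the same order from its own side, with a median score of 15.8 and width of 1663 bp beside RING1B, and 12.4 and 960 bp without it. By score quartile of the RING1B list, the share under the mark was 23.3%, 30.1%, 45.2% and 70.1% from the weakest to the strongest. In the top score decile it was 79.6% (75.5 to 83.3), and in the top decile of the mark 77.8% (74.3 to 81.0) overlapped RING1B. A wide peak meets another list more readily, and in the widest quartile of RING1B peaks the share was 78.0%. Width therefore moves with the score and with the overlap, and its part in the overlap was not tested.

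**Figure D1:**
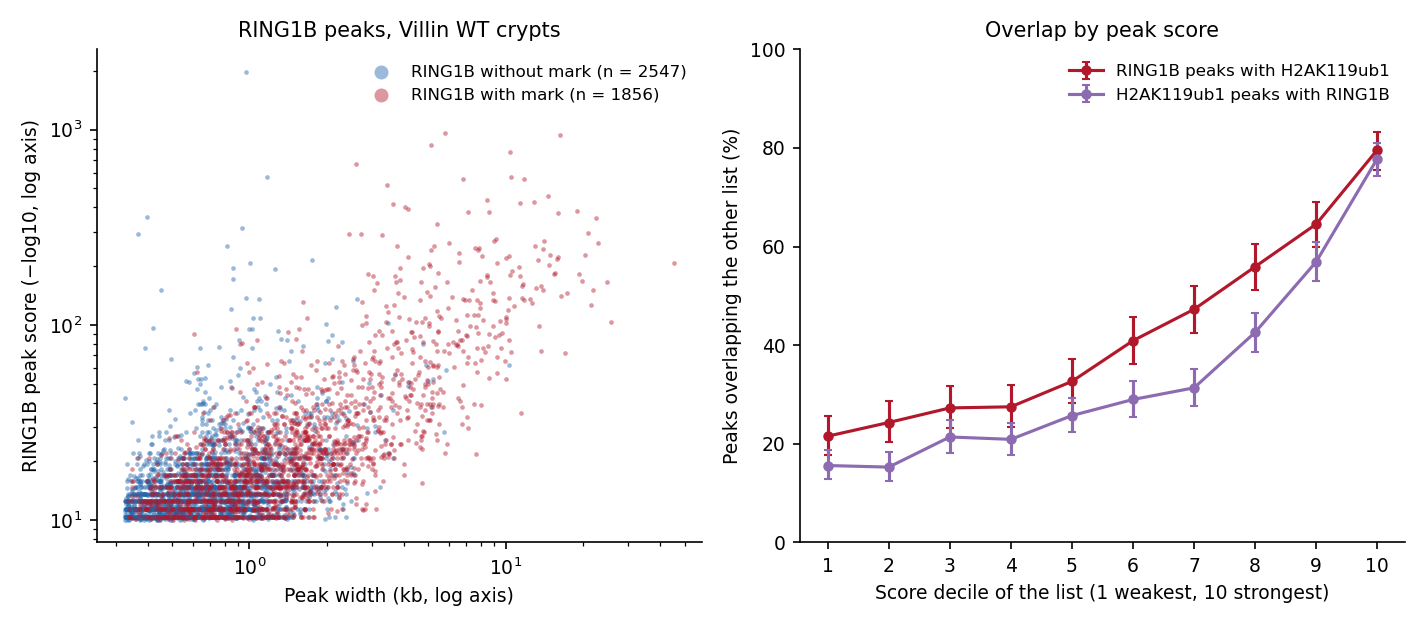
RING1B peaks of WT Villin-Cre crypts by width (kb, log axis) and score (−log10, log axis), coloured by overlap with H2AK119ub1 (left), and the share of each list that overlaps the other by score decile, with exact 95% intervals (right). Peaks with the mark (n = 1856) fill the upper right, and the share of RING1B peaks with the mark goes from 21.5% in the weakest decile to 79.6% in the strongest.

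Where they met, the peaks mostly lay on top of each other. The median RING1B peak of this class was covered by the mark over 81.2% of its length, 486 of the 1856 lay wholly inside 1 mark peak, and the centres were a median of 481 bp apart. Of the 2093 mark peaks, 2009 met 1 RING1B peak and 84 met 2 or more. Across the 1856 pairs, the Spearman rank correlation was 0.31 for the scores and 0.43 for the widths. These pairs share their positions and the local sequence, so the values are a description. The RING1B peaks without the mark were seldom near misses, since 177 of 2547 (6.95%) lay within 1 kb of a mark peak and the median gap to the nearest one was 112819 bp.

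Few peaks sat at the edge of the rule. Overlaps of 1 to 50 bp placed 17 RING1B peaks in the class with the mark, and a further 8 lay outside it by 50 bp or less. The peak at Tmem229a (score 14.7) was inside by 1 bp, and the peak at Nfatc2 (score 14.7) touched a mark peak end to end and counted as outside. The peak at Stat5a, which encodes a cytokine-activated transcription factor, was inside by 6 bp (score 13.1), and that at Nab2 was outside by 7 bp (score 10.4).

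RING1B lay at gene starts whether or not the mark was there, while the mark on its own lay mostly away from them. A peak was placed at a start when any part of it came within 1 kb of the start of a protein-coding gene, or of either end of the gene where the reference gave no start. This was so for 66.9% (64.7 to 69.1) of RING1B peaks with the mark and 71.7% (69.9 to 73.4) of those without it. It held for 63.4% of mark peaks with RING1B but 29.0% (27.6 to 30.4) of mark peaks without it. Of the latter, 36.4% lay elsewhere in a gene and 34.6% outside genes. In the strongest quartile of the mark list, 67.1% of the peaks with RING1B and 38.9% of those without it were at a start. By the peak midpoint instead of any part of the peak, which takes less account of width, the RING1B shares at a start moved apart, to 51.6% with the mark and 68.0% without. The mark shares came closer, to 38.4% with RING1B and 20.7% without, so most mark peaks of both kinds then lay away from starts.

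Over 21883 protein-coding genes, RING1B lay at 3136 (14.3%) and the mark at 2207 (10.1%). Both lay at 1267 genes (5.79%), RING1B without the mark at 1869 (8.54%) and the mark without RING1B at 940 (4.3%). Thus 40.4% of the RING1B genes carried the mark, and 57.4% of the marked genes carried RING1B. A gene was classed by the peaks in its own window, so 39 of the 1869 genes with RING1B alone had a RING1B peak that met the mark farther along. Of the 1267 genes with both, 76 had RING1B and mark peaks in the window that did not overlap each other. Beside the lists below, these 5 shares over all genes are the background.

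The strongest RING1B peaks with the mark at gene starts were 2599 to 16304 bp wide. The peak at Igf2bp3, an RNA-binding protein of fetal tissue, spanned 16304 bp at chr6:49212642-49228945 with a RING1B score of 941 and a mark score of 34.3. The LIM homeobox gene Isl2 had a RING1B score of 766 over 10382 bp and a mark score of 43.0. The other starts with high scores were those of the homeobox gene Tlx2 together with Dqx1 (837), of Cyp24a1, the vitamin D hydroxylase, with Pfdn4 (664), of the homeobox gene Hmx2 with the spindle checkpoint gene Bub3 (569), of Tal1, a blood-forming bHLH factor (560), and of the homeobox gene Dmbx1 (556). Each of these 7 peaks overlapped both RING1B and H2AK119ub1 peaks in the AhCre WT, AhCre KO and Villin-Cre KO crypts. At Tlx2, Hmx2 and Dmbx1 no peak of the crypt PCGF6 lists overlapped.

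The strongest RING1B peaks without the mark at gene starts were 818 to 2174 bp wide. Ndrg3 had a score of 571 over 1170 bp at chr2:156991412-156992581. It was followed by Rsl24d1, a ribosome assembly factor (315 over 938 bp), Hspbp1, a partner of Hsp70 (254 over 818 bp), Fbxw7, a substrate receptor of a ubiquitin ligase (208), and the Golgi protein gene Glg1 (194). Micu2, a regulator of mitochondrial calcium entry, scored 135, Gm34298 123, Ttc7 109, the elongation complex gene Mllt3 109 and Mga 101. Of the 10 peaks, 9 also overlapped RING1B in the KO list of Villin-Cre crypts, the exception being Micu2. PCGF6 in WT AhCre crypts scored 1220 at Micu2 and 1678 at Mga, and 12.6 to 24.3 at the 7 others that had a PCGF6 peak. Gm34298 had none.

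At gene starts, the peaks of the mark alone were led by a 25325 bp peak at the fucosyltransferase gene Fut2 and the netrin gene Ntn5 (chr7:45662248-45687572, score 49.7), which also overlapped CTCF and RAD21 peaks. Next came Dbn1, an actin-binding protein of neurons (39.8 over 1653 bp), Rasgef1c (35.6), the lens crystallin gene Cryba2 (35.2), the glutamate receptor gene Grik4 (31.6), the orexin receptor gene Hcrtr1 (30.4), Gm29797 (30.2), Arhgap23 (29.0) and Ache, which encodes acetylcholinesterase (29.0). All 9 peaks also overlapped the mark in the AhCre WT, AhCre KO and Villin-Cre KO lists. RING1B in WT AhCre crypts was listed at 2 of them, Dbn1 (12.8) and Grik4 (11.1), and in KO AhCre crypts at Dbn1 (15.0). RING1B in ESC was listed at 5, with the highest score, 103, at Dbn1.

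**Figure D2:**
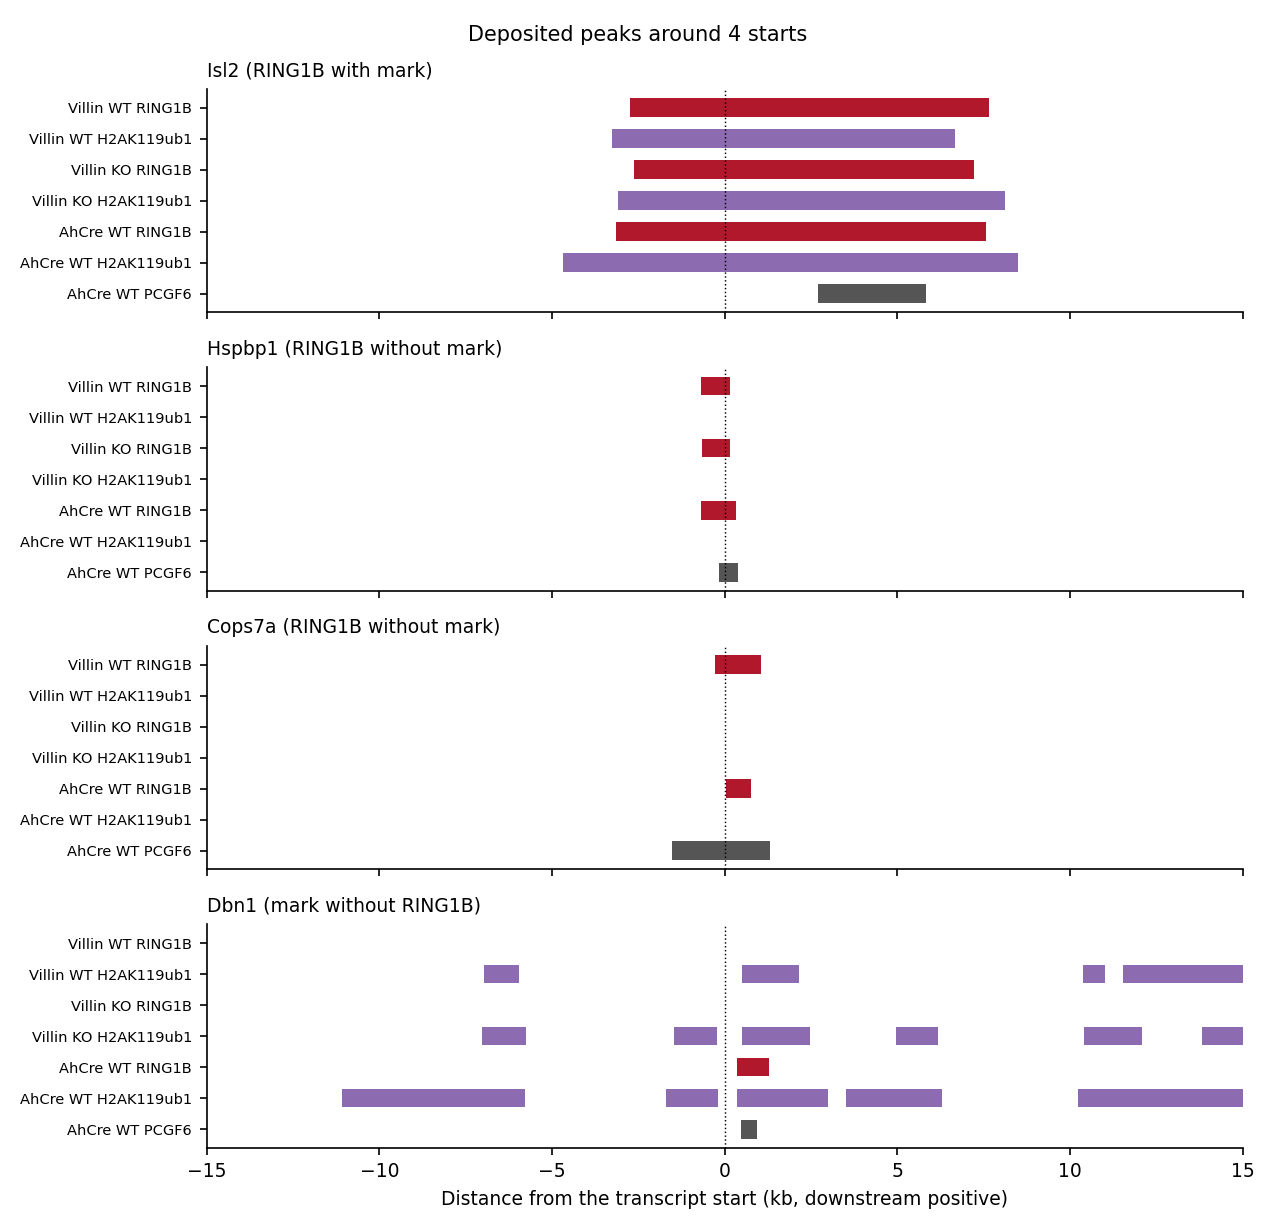
Deposited peaks within 15 kb of the starts of Isl2, Hspbp1, Cops7a and Dbn1, by distance from the start (kb, downstream positive), 1 line per list and 1 bar per peak. At Isl2, RING1B and the mark cover much the same stretch in all 3 crypt sources shown, at Hspbp1 and Cops7a RING1B stands without the mark, and at Dbn1 the WT Villin-Cre crypts have the mark without RING1B.

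The map of peaks around the 4 starts gives examples of the classes, of which Cops7a was picked for its E-box. At Isl2, relative to the start, RING1B ran from −2.74 to 7.64 kb and the mark from −3.26 to 6.66 kb, while PCGF6 lay from 2.69 to 5.82 kb. At Cops7a, a subunit of the COP9 signalosome, the RING1B score was 84.5 in WT Villin-Cre crypts and 25.8 in WT AhCre crypts, PCGF6 scored 998, and the Villin-Cre KO list had no RING1B peak. Dhx40, a DEAH-box helicase gene, and Cmc1, a mitochondrial assembly factor gene, were picked in the same way and are not on the map. Their RING1B scores were 83.5 and 76.5, PCGF6 scored 1043 and 981, and there was no RING1B peak in the Villin-Cre KO list. Most of the strongest RING1B peaks without the mark named above did overlap a RING1B peak of that list.

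The lists that the class rule did not use separated the RING1B classes. PCGF6 of WT AhCre crypts overlapped 76.3% (74.6 to 77.9) of RING1B peaks without the mark and 43.2% (40.9 to 45.5) of those with it. The difference was 33.1 percentage points (30.2 to 35.9). It was 40.5, 41.5, 24.2 and 28.6 points in the score quartiles from weakest to strongest, and 38.9, 35.5, 27.4 and 16.5 points in the width quartiles from narrowest to widest. In the KO AhCre crypts the PCGF6 list still overlapped 40.9% of the first class and 11.3% of the second. The PCGF6 peaks came from another Cre line, and PCGF6 of Villin-Cre crypts was not analysed here. PCGF6 of ESC overlapped 48.8% of the peaks without the mark and 55.7% of those with it. By score quartile from the weakest, its shares were 39.6%, 47.0%, 56.4% and 62.6% without the mark and 43.0%, 47.1%, 54.1% and 64.6% with it, with overlapping intervals in each quartile.

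By gene class the order was the same. PCGF6 of WT AhCre crypts lay at 86.6% (84.9 to 88.1) of genes with RING1B alone, 634 of the 1267 genes with both (47.2% to 52.8%), 25.5% (22.8 to 28.4) of genes with the mark alone and 35.2% (34.5 to 35.9) of genes with neither.

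RING1B peaks under the mark were found again more often. In the Villin-Cre KO crypts, RING1B was listed at 68.5% (66.3 to 70.6) of the peaks with the mark and 27.8% (26.1 to 29.6) of those without it, a difference of −40.7 points (−43.4 to −37.9) for the class without the mark. It was −18.5, −16.8, −28.5 and −29.8 points in the score quartiles and −17.3, −25.6, −24.4 and −21.0 points in the width quartiles. The WT AhCre list, where Pcgf6 was intact, gave 68.9% and 30.4%, so a like gap stood between WT libraries. These lists differ in length and their depth is unknown, so absence from one is not a measured loss. In ESC, RING1B overlapped 78.2% of the peaks with the mark and 35.5% of those without it.

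The shares were also taken apart by PCGF6. Over all quartiles, the KO list held 464 of 1943 (23.9%) peaks without the mark where PCGF6 had a peak and 244 of 604 (40.4%) where it had none. For peaks with the mark it held 68.7% and 68.3%. The WT AhCre list, with Pcgf6 intact, gave 26.0% and 44.4% without the mark and 69.3% and 68.6% with it. In the top score quartile, of peaks without the mark, 131 of 235 (55.7%, 49.1 to 62.2) were listed in KO crypts where PCGF6 had a peak and 83 of 94 (88.3%, 80.0 to 94.0) where it had none. Of peaks with the mark, 303 of 331 (91.5%, 88.0 to 94.3) and 429 of 441 (97.3%, 95.3 to 98.6) were listed. The WT AhCre list held 168 of 235 (71.5%) and 79 of 94 (84.0%) of the same peaks without the mark, with overlapping intervals, and 94.3% and 96.8% of those with it. The median scores in these 4 sets were 29.9, 32.4, 34.6 and 39.6, and the median widths 967, 1397.5, 2036 and 3181 bp.

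**Figure D3:**
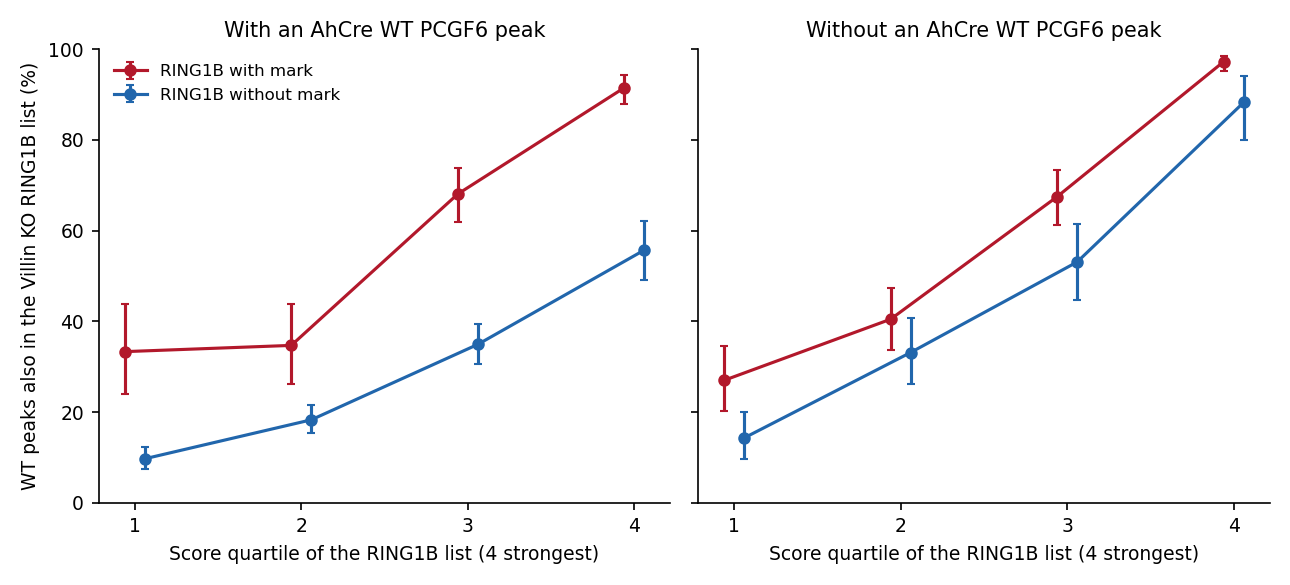
Share of RING1B peaks of WT Villin-Cre crypts that overlap a RING1B peak of the Villin-Cre KO list (%), by score quartile, for peaks with (left) and without (right) a PCGF6 peak of WT AhCre crypts, with exact 95% intervals. In the top quartile the share is 55.7% for peaks with PCGF6 and without the mark, and 88.3% to 97.3% in the other 3 sets.

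Being without the mark in the Villin-Cre list mostly meant being without it in the other crypt lists as well. Of the 2547 RING1B peaks without the mark, 1892 (74.3%) lay under no peak of the 4 crypt mark lists, and 655 lay under the mark in at least 1 of the 3 others. PCGF6 overlapped 84.2% (82.5 to 85.8) of the 1892 and 53.4% (49.5 to 57.3) of the 655. The Villin-Cre KO list of RING1B held 413 of the 1892 and 295 of the 655. Among peaks that were RING1B peaks in WT crypts of both lines, the AhCre peak lay under the AhCre mark for 1213 of 1279 (94.8%) of the class with the mark and 279 of 774 (36.0%) of the class without it. The AhCre WT mark list is longer, with 13175 peaks, so more RING1B peaks can fall under it.

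The mark without RING1B was found again in the other mark lists, less often than the mark with RING1B. The AhCre WT list held 80.8% of it against 93.0%, and the Villin-Cre KO list 44.9% (43.4 to 46.4) against 74.3% (72.4 to 76.2). In the second score quartile of the mark list, the AhCre difference of −3.81 points had an interval from −8.14 to 0.927. RING1B was in none of the 3 other crypt lists at 3872 of the 4126 peaks of the mark alone (93.8%). ESC RING1B overlapped 24.8% of them and PCGF6 of WT AhCre crypts 15.7%.

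CTCF of WT Villin-Cre crypts overlapped 26.9% of RING1B peaks with the mark, 30.6% of those without it and 826 of the 4126 peaks of the mark alone. For RAD21 the shares were 23.2%, 38.0% and 14.8%. By RING1B score quartile from the weakest, RAD21 overlapped 36.7%, 41.7%, 38.5% and 31.9% of the peaks without the mark and 16.8%, 16.3%, 24.1% and 27.7% of those with it, and the intervals of the strongest quartile overlapped.

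**Figure D4:**
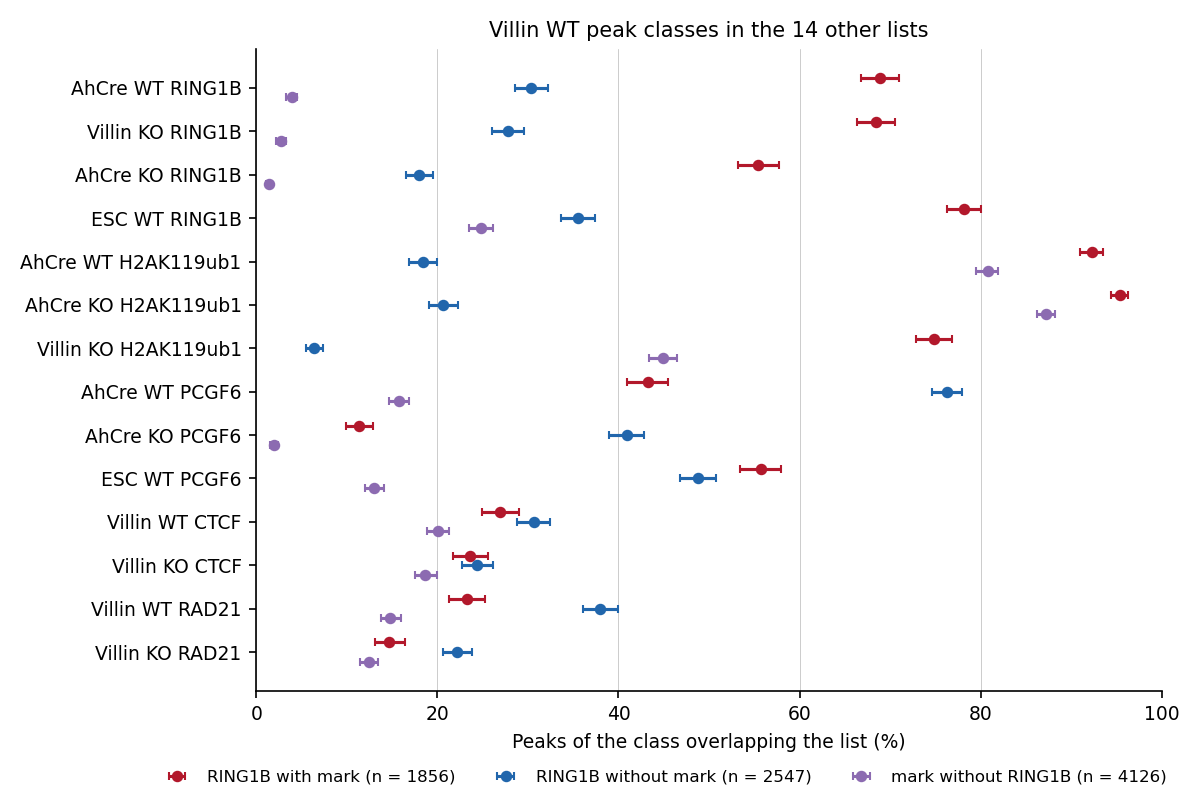
Share of the peaks of each class (%) that overlap each of the 14 other lists, with exact 95% intervals, for RING1B with the mark (n = 1856), RING1B without it (n = 2547) and the mark without RING1B (n = 4126). Crypt PCGF6 and RAD21 peaks are more frequent at RING1B without the mark, and the RING1B and mark lists are more frequent at RING1B with it.

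Developmental transcription factors mostly had both peaks. Of 39 Hox genes, which pattern the body axis, 35 had both (89.7%, against 5.79% of all genes), 3 had the mark alone (Hoxb1, Hoxb3 and Hoxc13) and Hoxd1 had neither. One RING1B peak of 45498 bp, the widest of the list, covered starts of Hoxa3, Hoxa5, Hoxa6, Hoxa7, Hoxa9 and Hoxa10 (score 206), and the mark there formed peaks of 26717 and 31135 bp, the widest of its list. Neighbouring Hox genes share such peaks and are not separate measurements. Of 120 other homeobox genes, 87 had both (72.5%), 6 RING1B alone and 10 the mark alone. The 6 were Barx2 (81.2), Isl1 (58.9), Irx1 (42.3), En1 (35.2), Nkx2-2 (15.9) and Nkx2-6 (12.7), and the mark was listed in KO AhCre crypts at all of them except Barx2, which had it in WT AhCre crypts (32.6). Of 87 further developmental factors (forkhead, Sox, T-box, GATA and others), 46 had both (52.9%), 8 RING1B alone and 7 the mark alone. The highest RING1B scores with the mark among them were those of Tal1 (560), the T-box gene Tbx2 (211), Neurod2 (194) and the forkhead gene Foxd2 (190).

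The lists of Polycomb machinery genes were small, and the intervals of their shares overlapped between lists. Of 15 PRC1.6 genes, 5 had RING1B alone (33.3%, 11.8 to 61.6, against 8.54% of all genes). Rybp had both (RING1B 14.7, mark 10.3). The 5 were the scaffold gene Mga (101), Tfdp1, the E2F partner (45.3), the deacetylase gene Hdac2 (35.2), E2f6 (34.8) and Ring1, which encodes RING1A (17.1). Pcgf6 itself, L3mbtl2, Max, Tfdp2, Hdac1, Cbx3, Wdr5, Yaf2 and Rnf2, which encodes RING1B, had neither peak. PCGF6 of WT AhCre crypts was listed at all 6, from 27.9 at Ring1 to 1678 at Mga. It was also listed at 86.6% of all genes with RING1B alone and 634 of the 1267 genes with both. RING1B in the Villin-Cre KO list was at Mga (11.2) and Ring1 (10.3). Of 32 other PRC1 genes, 7 had both (21.9%, 9.28 to 40.0, against 5.79% of all genes). RING1B alone was at 8 (25%, 11.5 to 43.4, against 8.54%). Those with both included the chromodomain genes Cbx2 (179) and Cbx8 (109), and Bmi1, the canonical PCGF4 gene (100). Those with RING1B alone scored lower, from 11.4 at Bcor to 23.9 at Pcgf2. Of 14 PRC2 genes, Epop and Phf19 had both (14.3%, 1.78 to 42.8). The methyltransferase gene Ezh2 had RING1B alone (7.14%, 0.181 to 33.9, score 19.5). These PRC2 intervals hold the shares of all genes.

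Signalling genes were spread over the classes. Of 63 Wnt pathway genes, 21 had both (33.3%), 8 RING1B alone (12.7%) and 12 the mark alone. Among the secreted Wnt ligands, 10 had both, with the highest RING1B score at Wnt5a (RING1B 39.6, mark 15.7) and the highest mark score at Wnt2b (13.6 and 41.2), while Wnt2, Wnt3, Wnt3a, Wnt4, Wnt7a and Wnt9b had the mark alone. Among the Frizzled receptors, Fzd1, Fzd4, Fzd5, Fzd6 and Fzd8 had RING1B alone and none had the mark alone. The negative feedback genes Axin2 (17.1) and Znrf3 (16.4) had RING1B alone. Of 54 BMP and TGF-beta genes, 15 had both (27.8%), 6 RING1B alone (11.1%), 7 the mark alone (13.0%) and 26 neither. The shares of all genes were 5.79%, 8.54% and 4.3%. The activin antagonist Fst had the highest RING1B score of them (93.3).

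Cell type markers of the crypt fell in all 3 classes. Over all genes, the shares were 5.79% with both, 8.54% with RING1B alone and 4.3% with the mark alone. Of 21 intestinal stem cell markers, 6 had both and 6 RING1B alone (each 28.6%, 11.3 to 52.2). The mark alone was at 2 (9.52%, 1.17 to 30.4), and 7 had neither. Ascl2, a stem cell transcription factor, had both (26.2 and 15.6), Nrn1 (52.8) and Sox9 (14.1) had RING1B alone, and Lgr5, the receptor that defines crypt base stem cells, had the mark alone (19.2). Of 26 enteroendocrine genes, 7 had both (26.9%, 11.6 to 47.8), led by Neurod2 (194), Pax6 (166) and Insm1 (108). RING1B alone was at 4 (15.4%, 4.36 to 34.9), the mark alone at 2, and 13 had neither. Among 18 goblet cell genes, the secretory lineage regulators Gfi1 (224) and Atoh1 (129) had both (11.1%, 1.38 to 34.7), Spink4 and Creb3l1 had the mark alone, and 14 had neither. None of 27 enterocyte genes had the mark, and the interval of 0 to 12.8% holds the 10.1% of all genes. Cdx2, Klf4 and Klf5 had RING1B (10.3 to 14.3), a share of 11.1% that is near the background. Of 11 Paneth cell genes, Dll4 had RING1B alone and 10 had neither. Of 30 tuft cell genes, 1 had both (3.33%), 1 RING1B alone (3.33%), 2 the mark alone (6.67%) and 26 neither.

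Markers of other cells that a crypt preparation can hold were also counted. None of 20 immune cell genes had either peak, and the interval of 0 to 16.8% for each class holds the share of all genes. Of 20 mesenchymal and endothelial genes, 4 had both (20%, 5.73 to 43.7), among them Pdgfra (76.5 and 26.5). The mark alone was at 2 (10%, 1.23 to 31.7). These intervals hold the 5.79% and 4.3% of all genes. Peaks of bulk chromatin do not say which of the cells carried them, and RING1B and the mark at 1 gene can come from different cells.

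Ribosomal protein genes had no mark, and imprinted genes fell in all 3 classes. Of 79 cytosolic ribosomal protein genes, 9 had RING1B alone (11.4%, 5.34 to 20.5) and none had the mark, with scores of 10.4 to 15.6. The share is near the 8.54% of all genes. All 9 had a PCGF6 peak in WT AhCre crypts, as did 86.6% of all genes with RING1B alone. Of 56 E2F targets of replication and the cell cycle, 4 had RING1B alone (7.14%), also near the background. Of 43 imprinted genes, 13 had RING1B alone (30.2%, 17.2 to 46.1), 7 both (16.3%, 6.81 to 30.7) and 3 the mark alone. The order of the first 2 shares is that of all genes, and their intervals overlap. The highest of the 13 were Impact (77.3), Igf2r (52.8) and Zdbf2 (37.9), and some share 1 peak, such as Peg10 with Sgce. Of 70 germline and meiosis genes, 6 had both (8.57%, 3.21 to 17.7), including Zcwpw1 and the meiotic cohesin gene Stag3 (57.4). RING1B alone was at 3 of them (4.29%, 0.893 to 12.0). These intervals hold the 5.79% and 8.54% of all genes. Of 7 cell cycle inhibitors, Cdkn2a (254 and 37.0), Cdkn1a and Cdkn1c had both. Cdkn2b had RING1B alone in its window (104), and the 25735 bp peak there met the mark farther on.

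**Figure D5:**
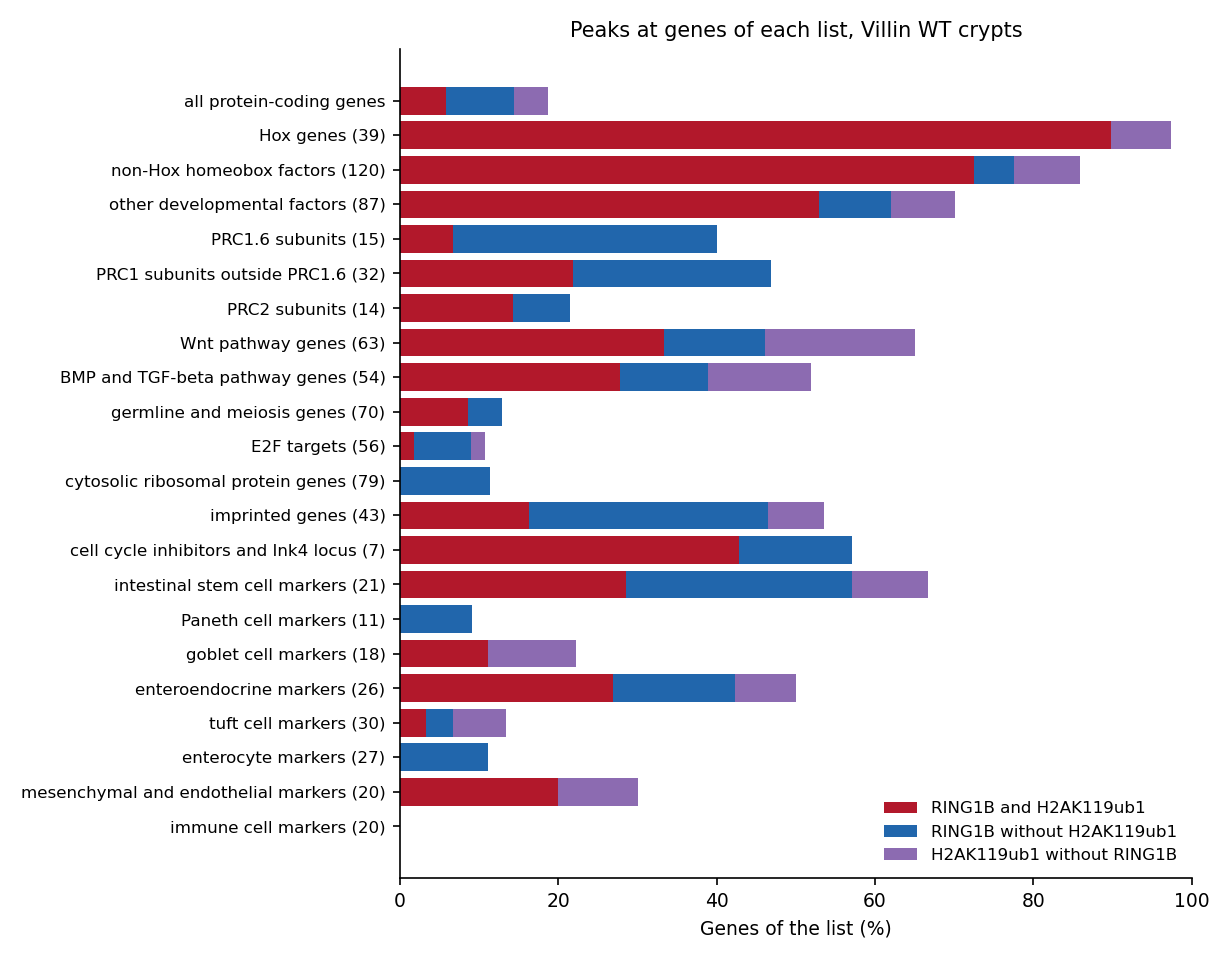
Share of the genes of each list (%, number of genes in parentheses) with both peaks, RING1B without the mark or the mark without RING1B, above them the same over all 21883 protein-coding genes. Hox and other homeobox genes are mostly in the class with both, ribosomal protein and PRC1.6 genes with a peak mostly in the class of RING1B alone.

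The promoter bases of the gene classes were compared over 21262 promoters of 250 bases. The ratio of observed to expected CpG had a median of 0.790 at genes with RING1B alone, 0.725 at genes with both, 0.595 at genes with the mark alone and 0.441 at genes with neither, against 0.530 over all. The E-box CACGTG, which reads the same on both strands, was in 12.2% (10.8 to 13.9) of promoters with RING1B alone, 8.15% (6.60 to 9.93) with both, 6.82% with the mark alone and 5.96% with neither, against 6.63% of all. With a PCGF6 peak at the gene, the shares were 13.0% (11.4 to 14.8) and 12.2% for RING1B alone and for both. Without one they were 7.02% and 4.42%. Promoters without RING1B had the same order. With neither peak, the E-box was in 9.60% (8.87 to 10.4) with PCGF6 and in 457 of 11411 promoters without it. With the mark alone it was in 10.1% and 5.89%, with overlapping intervals. Where PCGF6 had a peak, the median CpG ratio was 0.798 for RING1B alone and 0.774 for neither. GGCGGGA on either strand was in 392 of 1781 promoters with RING1B alone, 20.1% of those with both, 19.2% of those with the mark alone and 12.9% of all promoters. Where PCGF6 had a peak, it was in 21.8% with RING1B alone and 19.5% with neither, with overlapping intervals. An E-box and a GGCGGGA can share at most 1 base. A match describes the letters of the window and is not a bound site.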

How the data were processed

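Per the labels, formaldehyde-fixed crypts were sheared to about 500 bp and each list came from 1 library. The sample titles name a WT crypt input and a WT ESC input as references. Further inputs are titled for WT and KO crypts of both Cre lines. The titles do not say which input served in calling the peaks of each list. Drosophila S2 chromatin (5%) was spiked into the H2AK119ub1 samples and is not used here. MACS2 2.1.1, mm10 and Bowtie in versions 1.1.2 and 1.2.2 appear in the submitters' processing notes, without their roles. The deposited score is a −log10 value that the authors' peak caller gave each peak. The names the authors gave the lists carry the tag p10, which points to a p threshold, and the labels do not say whether the score is from p or q.

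The lists were used as deposited on chromosomes 1 to 19, X and Y, which left out 2 RING1B peaks on M. Of 22 samples, 6 inputs have no list and were not used. Genes were 21883 protein-coding genes of RefSeq's GRCm38.p6. Starts were given for 17491, and windows of 1 kb around either gene end served for the other 4392. Overlap needed 1 bp. Score and width quartiles are those of the whole RING1B or mark list, with ties split in file order. Intervals of differences combine the exact bounds of both shares. The members, the 21 gene lists and the comparisons were chosen with earlier results of these data known. Named genes are the protein-coding genes at the 10 highest peaks of each class, those of the widest peaks and members of the lists, of which 1 is not reported here. No set test was made. In tests on simulated lists, 700 of 700 placed overlaps were found and 0 of 1300 other peaks counted, and 3 overlap counts differed from bedtools in 0 cases. Software was pandas 2.3.3, numpy 2.4.6, scipy 1.17.1 and matplotlib 3.10.9 on Python 3.11.15, with bedtools 2.31.1.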

Additional observations from a re-analysis of the deposited data

How the results depend on the processing

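Of 110 values recomputed under another setting, 57 moved less than their interval or stayed within 1.5 times the count, 53 moved more and 0 changed sign, although some orders turned over. With both lists held to a score of 20 or more, 395 RING1B peaks had the mark and 918 did not (30.1% with it), and 444 mark peaks had RING1B and 401 did not (52.5% with it), so the mark peaks with RING1B became the majority and their share passed that of RING1B. That cut keeps unequal parts of the 2 lists, whose scores are not scaled to each other. With it, the gene counts were 295 with both, 664 with RING1B alone and 209 with the mark alone. Requiring 50% of the RING1B peak left 30.8% of RING1B peaks with the mark and 1308 mark peaks with RING1B (21.0%). Counting peaks within 1 kb gave 46.2% and 38.9%. With lists of equal length, 36.8% of RING1B peaks and 40.8% of mark peaks overlapped, and 2608 mark peaks had no RING1B, and the order of the 2 shares again turned. Leaving out peaks found in 12 or more of the 14 other lists, a setting added after seeing the data, gave 39.4% and 30.6%.

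The PCGF6 difference in percentage points (RING1B without the mark minus with it, 33.1) was 40.5, 41.5, 24.2 and 28.6 by score quartile, 36.4 without the peaks of most lists, and 38.9, 27.4 and 16.5 in width quartiles 1, 3 and 4, a split that was also added later. The difference in the Villin-Cre KO list of RING1B (−40.7) was −18.5, −16.8, −28.5 and −29.8 by score quartile and −17.3, −25.6, −24.4 and −21.0 by width quartile. That in the AhCre WT list of RING1B (−38.5) was −17.4, −18.9, −23.9 and −20.6. The mark without RING1B minus the mark with it differed in the Villin-Cre KO mark list by −29.5, by score quartile by −10.9, −17.1, −16.1 and −12.4, and within 1 kb by −26.4. In the AhCre WT mark list the values were −12.3 in all, −10.5, −3.81, −6.78 and −2.98 by quartile, and −10.3 within 1 kb. By peak midpoint, the shares at a start were 51.6% for RING1B with the mark, 68.0% for RING1B without it, 38.4% for the mark with RING1B and 20.7% for the mark without it. These settings change the peaks or windows counted; other causes of the movements were not tested. No paired analysis was possible because each group had 1 library. The scores start at 10, so weaker binding below that is not seen in either list.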

Other observations

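The X chromosome held 152 of the 4126 mark peaks without RING1B (3.68%), 23 of the 2093 with it, and 31 of the 2547 RING1B peaks without the mark (1.22%). The highest RING1B score, 1982, was at chr2:98666312-98667278, outside genes, without the mark and overlapping 11 of the 14 other lists. The highest score with the mark, 960, was at chr17:39843014-39848813, outside genes and in all 14 other lists, and its mark peak was the highest of that list (94.7). PCGF6 was listed at both regions even in Pcgf6 KO AhCre crypts. Its scores in KO and WT were 1458 and 793 at the chr2 region and 45.4 and 180 at the chr17 region. Whether the signal at either region is RING1B binding was not tested. Peaks found in 12 or more of the 14 other lists numbered 149 of the 1856 RING1B peaks with the mark and 8 of the 2547 without it. Of the peaks without a partner, 61 RING1B peaks and 197 mark peaks lay in no other list.

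Outside genes, the median gap to the nearest protein-coding gene was 9496 bp for RING1B with the mark (262 peaks), 21779 bp for RING1B without it (387 peaks) and 17161 bp for the mark without RING1B (1427 peaks).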
